A study of Mus musculus with 69 samples.

Results

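The exons described here lie on mouse chromosome 3 between 96 and 97 Mb. All exon rows of the deposited exon table whose start falls in that megabase were taken, without those of histone genes (names beginning Hist). This gave 288 exons of 253821 in the exon table, which belong to 57 of the 42279 genes of the gene table, and 9 exons of 8 histone genes were left out. Positions are on mm10 as in that table, counted from 1. The stretch was selected on the line differences measured in these libraries, so those differences are given as a description, with no test.

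RNA of the ventral striatum, a forebrain region tied to reward and drinking, was sequenced from 69 mice, 1 library per mouse. The groups were 17 female and 18 male HDID1 mice, selected over generations for the blood ethanol they reach in a limited-access drinking test, and 17 female and 17 male HSNpt mice, the control stock. Mice of both lines are given the same protocol in the labels: a 4-day trial with a single bottle of 20% ethanol from 3 h into the dark phase, 2 h a day and 4 h on the last, and collection 3 weeks later. The sources used here give no ages. With 1 selected line and 1 stock, selection cannot be told apart from any other difference between the lines. Library totals lay between 14077983 and 35257422 counts, with a median of 17646316. All 13 tested markers of striatal spiny neurons were detected in every library, the lowest being Adora2a, at 1.32 CPM (counts scaled to 1000000 per library) in 1 library against a mean of 265. By markers of striatal spiny neurons, of other brain tissue, or by the balance of 5′ against 3′ exon counts, 21 libraries stood apart, 13 of HDID1 and 8 of HSNpt. The line differences of called genes, the number of passing pairs and the r of some pairs are also given without them.

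The segment is crowded and its genes have little in common in function. It holds Rbm8a, whose protein Y14 is a core part of the exon junction complex that marks spliced mRNA, and Polr3c and Polr3gl for subunits of RNA polymerase III. It also holds the synaptic vesicle glycoprotein gene Sv2a, a cluster of histone genes with antisense transcripts, and a run of U1 small nuclear RNA genes. In humans, loss of RBM8A dosage in the matching stretch of chromosome 1 underlies thrombocytopenia with absent radii. Several neighbours overlap on opposite strands, and the sources used here do not say whether counting used strand, so reads of such pairs cannot be told apart.

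Of the 57 genes 26 are protein-coding in GENCODE M21 and 2 were not found there by name. Of the 288 exons 129 are fully coding, 74 partly coding and 85 not coding, and 34 overlap an exon of another gene. Exon lengths ran from 21 to 6361 bases with a median of 150.5. In all, 31 genes and 167 exons passed the filter on low counts. The other 26 genes had at most 338 counts summed over all libraries, and 12 of them, 8 of which are small nuclear RNA genes, had no count in any library. The limit for a gene at 0 in a library is 3 counts, which at the lowest library total is 0.213 CPM, for counting error only. Among the untested genes was the telomerase RNA gene Terc, with 22 counts.

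The sequences that follow show places named in the results: a stretch that 2 gene starts share in the exon table, and coding exons of genes whose exon profiles are described. Each is written 5′ to 3′ on the strand named. The starts of Polr3c and Rnf115 share 18 bases in the exon table, shown in capitals within 30 bases at chr3:96727605-96727634 on the plus strand (RefSeq, GRCm38.p6).
Polr3c and Rnf115: gtgccgGGAGGCGGGCCTCGGGTCgcgtgg

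Rbm8a showed the steepest exon profile of the named genes with at least 3 tested exons. Its exon 2 (chr3:96630302-96630361), exon 3 (chr3:96630477-96630554) and the 46 coding bases of its last exon, exon 6 (chr3:96631689-96631734, stop codon in capitals), are on the plus strand (GENCODE M21, GRCm38).
Rbm8a exon 2: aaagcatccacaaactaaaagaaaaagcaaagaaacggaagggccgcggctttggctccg
Rbm8a exon 3: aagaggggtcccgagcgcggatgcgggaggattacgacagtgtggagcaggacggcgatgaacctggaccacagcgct
Rbm8a exon 6: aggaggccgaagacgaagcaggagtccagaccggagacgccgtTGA
Nudt17 exon 2 (chr3:96707992-96708175, minus strand) and Ankrd35 exon 12 (chr3:96689146-96689235, plus strand) are coding exons of genes whose tested exons all lay on the same side of 0.
Nudt17 exon 2: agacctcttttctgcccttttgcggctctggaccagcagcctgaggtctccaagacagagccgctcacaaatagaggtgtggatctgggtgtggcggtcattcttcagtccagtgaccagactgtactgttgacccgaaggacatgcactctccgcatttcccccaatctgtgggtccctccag
Ankrd35 exon 12: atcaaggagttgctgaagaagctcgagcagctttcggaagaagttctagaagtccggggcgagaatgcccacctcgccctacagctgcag

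RefSeq promoter windows, from 250 bases before to 50 after a gene's start, were at hand for 19 of the 31 tested genes, in 22 windows. The letters GGGCGG, on either strand, were found in 12 of the 22 windows, against 35.7% of all 32851 windows, and the letters TATAAA, on either strand, in 2 of 22, against 13.6%. The window of Rnf115 held 2 matches to GGGCGG and that of Polr3c 3, and these windows overlap. No match to either was found in the Itga10 window. By RefSeq the starts of Polr3c and Rnf115 are 171 bases apart. These matches describe the letters only.

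HDID1 mice had more reads than HSNpt mice of 23 of the 31 tested genes and fewer of 8. With edgeR's quasi-likelihood test and an adjusted p below 0.05 as the threshold, 11 of the 31 genes were called higher in HDID1 and 4 lower, where 5.98% of all 16867 tested genes were higher and 5.73% lower. Since these calls led to the choice of the segment, nothing is read from that count. The median log2 difference, HDID1 minus HSNpt, was 0.09 over the 31 genes and 0.01 over all genes. In bulk tissue fewer cells of a type and less RNA per cell cannot be told apart. Of the 24 tested protein-coding genes 20 were higher, with 9 called higher and Gpr89 called lower. Among the 7 others, antisense, pseudogene and processed transcripts, 2 were called higher and 3 lower.

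The 31 genes form 30 adjoining pairs, and 25 of these had the same sign on both sides. Most genes were higher, 23 of 31, the segment was chosen on these differences, and exons overlap in 9 of the pairs. The share of such pairs elsewhere was not computed, so nothing is read from this count or from the run below. The longest run held 17 genes in a row with more reads in HDID1, from Hfe2 to Cd160, and 9 of the 17 were called. With 4 marker scores in the fit 12 of these 17 genes stayed above 0, and Hfe2, Gm15441, Txnip, Polr3gl and Rnf115 lay below. In that fit 16 of all 31 genes were above 0, with a median of 0.01, and 22 of the 30 adjoining pairs had the same sign. Without the libraries that stand apart 16 of the 17 and 21 of the 31 were above 0, with a median of 0.03, and 21 of the 30 pairs had the same sign. Before that run, across a gap of 231.2 kb with no tested gene, 5 neighbours beside the histone cluster, from Gm20632 to Fcgr1, were all lower in HDID1. Of these, Gm20628 (-0.05, SE 0.12) and Fcgr1 (-0.12, SE 0.10) were not called. Gm20628 had 0.10 without the libraries that stand apart and 0.002 with the 5′ balance in the fit. The others stayed below 0 in both. Outside the segment, 2 of 40 tested genes in the megabase before it were called higher and 1 lower, and in the megabase after it 0 of 8 were called higher and 1 lower. The nearest tested genes beyond the limits were Plekho1, with a log2 difference of 0.09 (SE 0.10), and Acp6, at -0.15 (SE 0.06). At the left limit the last exon of Vps45 starts just outside, at 95999832, with a log2 difference of 0.33, and the next exon just inside, at 96019609, had 0.19.

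**Figure D1:**
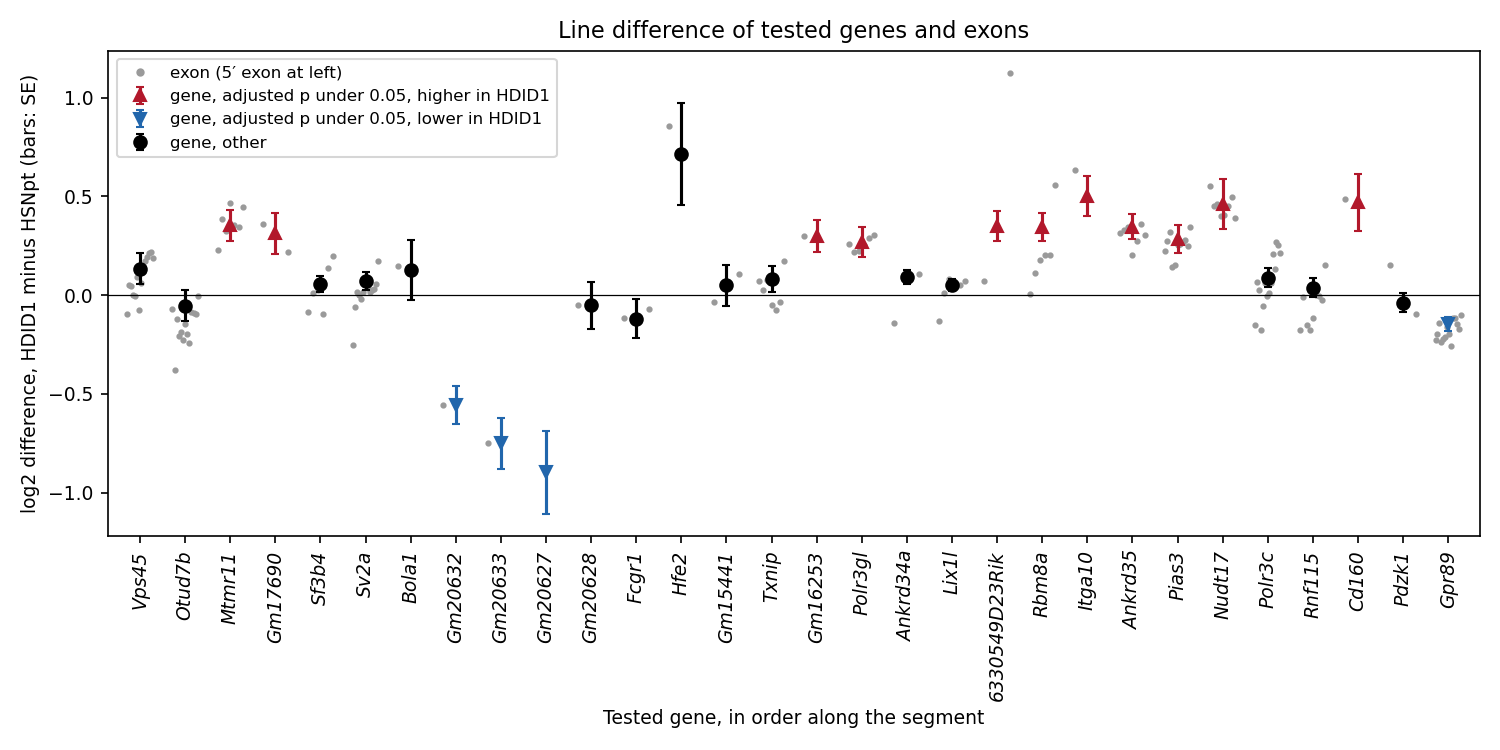
The log2 difference between the lines (HDID1 minus HSNpt, y axis) is plotted for 30 of the 31 tested genes in their order along the segment, with SE bars, and for their tested exons as grey points, both scaled by gene-table library sizes. The genes drawn from Hfe2 to Cd160 all lie above 0, and Gm20632, Gm20633 and Gm20627 lie lowest.

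The 3 genes with the largest lower values sat in the histone cluster. Gm20633, an antisense transcript of 1 exon at chr3:96243550-96245497 on the minus strand, ranged from 0.0683 to 1.60 CPM with a median of 0.808 in HDID1 and from 0.687 to 2.27 with a median of 1.20 in HSNpt. Most HDID1 mice lay low, and 3 of 35 were above the HSNpt median, though the ranges overlap. Its log2 difference was -0.75 (SE 0.13), -0.77 in females and -0.73 in males. Gm20632, on the plus strand at chr3:96239393-96241819, ranged from 0.447 to 2.05 CPM (median 1.12) in HDID1 and from 1.11 to 2.57 (median 1.73) in HSNpt. Again 3 of 35 HDID1 mice were above the HSNpt median, and the log2 difference was -0.55 (SE 0.10). All counts of Gm20632 fall in an exon that overlaps the histone gene Hist2h2aa1 on the opposite strand. Gm20627, the gene of the segment with the largest difference (-0.90, SE 0.21), had medians of only 0.216 and 0.464 CPM. Without the libraries that stand apart Gm20633 had -0.64, Gm20632 -0.66 and Gm20627 -0.83, and the first 2 were also called with 4 marker scores in the fit, at -0.71 and -0.45.

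Ankrd35, an ankyrin repeat gene at chr3:96670131-96691009, was among the steadiest of the higher genes. It ranged from 11.9 to 23.2 CPM (median 16.3) in HDID1 and from 8.58 to 25.1 (median 12.6) in HSNpt. In HDID1 34 of 35 mice lay above the median of HSNpt, and 1 HSNpt mouse was above every HDID1 mouse. The log2 difference was 0.35 (SE 0.06), with 0.33 in females and 0.36 in males. It was 0.34 without the 21 libraries that stand apart and 0.32 with the 4 marker scores.

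Rbm8a at chr3:96629928-96633779 ranged from 42.2 to 92.7 CPM (median 50.2) in HDID1 and from 33.5 to 85.0 (median 39.5) in HSNpt. Every HDID1 mouse was above the HSNpt median, while 10 of 34 HSNpt mice lay inside the HDID1 range. Its log2 difference of 0.34 (SE 0.07) became 0.29 without the libraries that stand apart, 0.25 with the 5′ balance and 0.17 with the 4 marker scores. 6330549D23Rik, a transcribed pseudogene on the opposite strand with 107 bases between its start and that of Rbm8a, ranged from 1.13 to 3.51 CPM (median 2.11) against 1.07 to 2.57 (median 1.76), a log2 difference of 0.35 (SE 0.08), 0.37 without the libraries that stand apart. For this gene 31 of 35 HDID1 values exceeded the HSNpt median, and 69.8% of its counts lie in exons that overlap Lix1l.

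Itga10, for a collagen-binding integrin subunit, at chr3:96645584-96664519, ranged from 0.683 to 2.74 CPM (median 1.60) in HDID1 and from 0.599 to 1.70 (median 1.19) in HSNpt. Its log2 difference was 0.50 (SE 0.10), 0.51 without the libraries that stand apart and 0.26 with the 4 marker scores, and 28 of 35 HDID1 values exceeded the HSNpt median. Nudt17, of the Nudix hydrolase family, at chr3:96705892-96708560, ranged from 3.06 to 19.7 CPM (median 6.18) against 1.957 to 9.69 (median 4.57). Its log2 difference of 0.46 (SE 0.13) was 0.28 without the libraries that stand apart and 0.10 with the 4 marker scores. Mtmr11, a myotubularin-related gene at chr3:96162004-96171718, ranged from 7.29 to 17.4 CPM (median 9.94) against 4.60 to 12.1 (median 8.02), with a log2 difference of 0.35 (SE 0.08). That value was 0.23 without the libraries that stand apart and 0.12 with the scores. For Nudt17 27 and for Mtmr11 30 of 35 HDID1 values exceeded the HSNpt median, and the ranges of the lines overlap for both.

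**Figure D2:**
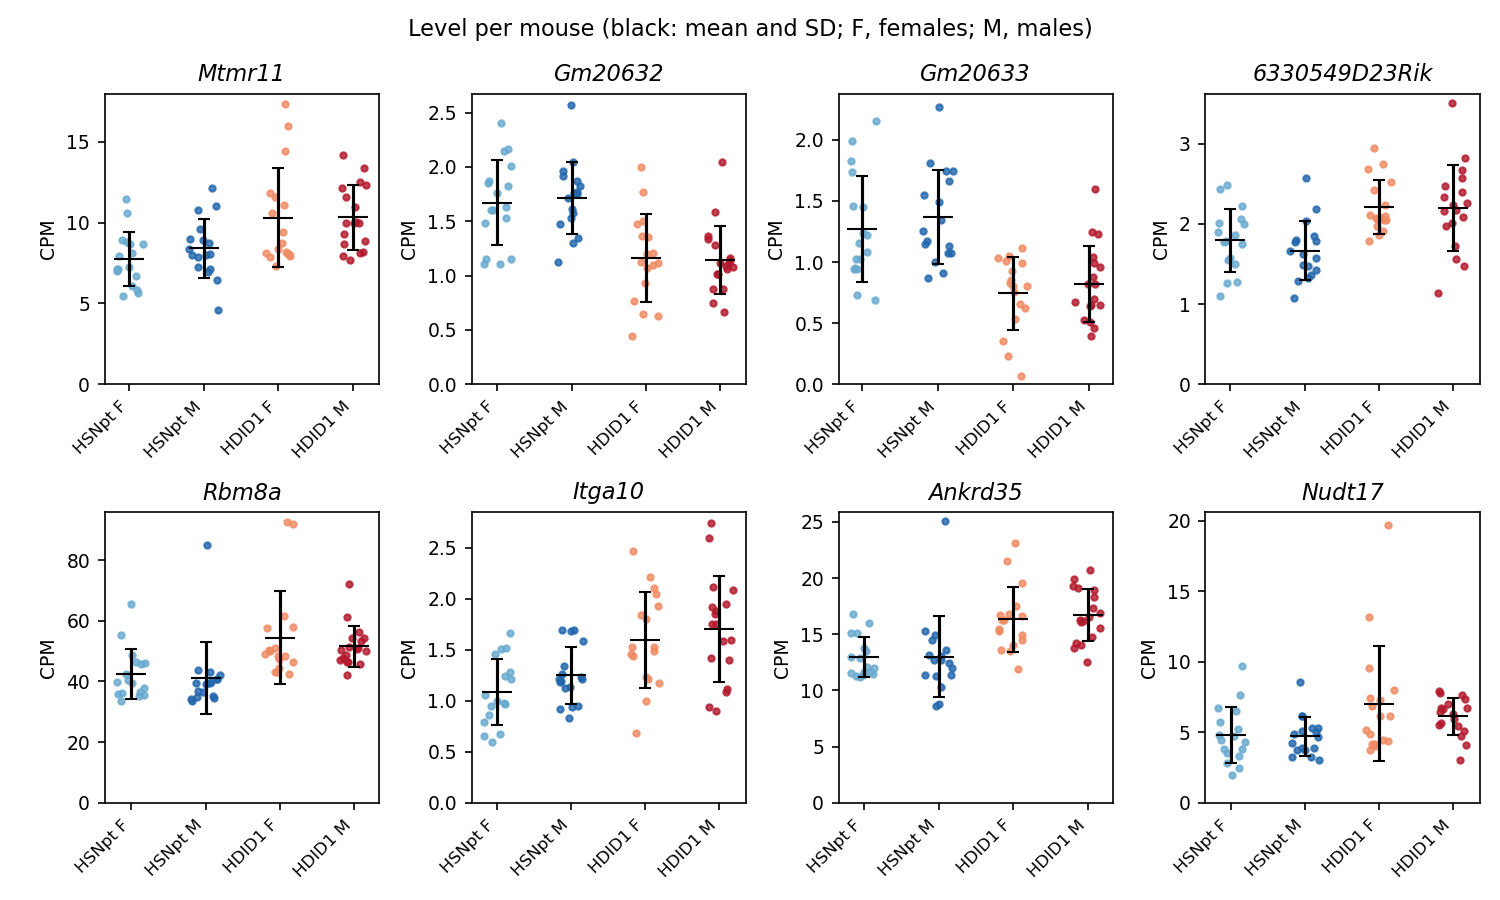
Each point is the level of 1 mouse in CPM (y axis, from 0) for the 8 genes of largest line difference with a mean of at least 1 CPM, by line and sex, with mean and SD in black. Gm20632 and Gm20633 lie lower in HDID1 and the other 6 genes higher, and the ranges of the lines overlap for every gene.

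The other called genes were Cd160, a receptor of natural killer and T cells (0.47), the Mtmr11 antisense gene Gm17690 (0.31), Gm16253 (0.30), the SUMO ligase gene Pias3 (0.28), Polr3gl (0.27) and Gpr89, for a Golgi pH regulator (-0.14). All counts of Gm17690 and 99.9% of those of Gm16253, which overlaps Polr3gl, lie in exons that overlap another gene. Their differences cannot be told apart from those of these neighbours. Hfe2, for the iron regulator hemojuvelin, had a log2 difference of 0.71 (SE 0.26) at a mean of 0.511 CPM and was not called. Without the libraries that stand apart Gm17690 had 0.10, Pias3 0.14 and Hfe2 0.28, while Cd160 had 0.47, Gm16253 0.31, Polr3gl 0.20 and Gpr89 -0.12. The remaining 15 tested genes lay between -0.12 (Fcgr1) and 0.13 (Vps45). With the libraries that stand apart left out, 5 genes were called higher and 3 lower, and 8 of the 15 called genes were called again. With scores for spiny neurons, hypothalamus, choroid plexus and oligodendrocytes in the fit, 1 was called higher (Ankrd35) and 2 lower. The shares of all genes called in these fits were not computed, so nothing is read from these counts. The spiny neuron score was -0.25 ± 0.83 (SD, n = 35) in HDID1 and 0.26 ± 0.56 (SD, n = 34) in HSNpt, and the hypothalamus score 0.67 ± 1.67 and -0.69 ± 1.57. All 13 tested spiny neuron genes, of 14 listed, and all 8 tested hypothalamus genes, of 9 listed, had counts. HDID1 female replicate 5 had the lowest spiny neuron score (-3.63), the highest midbrain dopamine score (3.715) and the highest Mtmr11 level. This mouse is among the 21 that stand apart and is kept in the fits over 69 libraries. The score of each library is on a log2 CPM scale centred on all libraries, and its part in each line difference was not tested apart from that fit.

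Per kilobase of exon, Sv2a stood far above the rest, at 126 CPM per kb in HSNpt, followed by Rnf115 at 20.2, Ankrd34a at 18.8 and Rbm8a at 16.04. Cd160 was lowest of the 30 genes that lie wholly inside the segment, at 0.162. Sv2a ranged from 463 to 827 CPM in HDID1 and from 462 to 747 in HSNpt, so its ranges lie almost on top of each other, with a log2 difference of 0.07 (SE 0.05), or -0.01 without the libraries that stand apart. Between mice of the same line the SD of log2 CPM ran from 0.126 (Lix1l) to 0.887 (Hfe2) in HSNpt and from 0.117 to 0.918 in HDID1, for the same 2 genes. Together the 288 exons held between 0.0901% and 0.130% of a library's counts in HSNpt and between 0.0992% and 0.141% in HDID1.

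Exons of a gene did not always share its line difference. Of the 167 tested exons 10 were called higher in HDID1 and 2 lower, where 1.24% and 1.47% of all 124520 tested exons were (2.71% in either direction), and again nothing is read from this. Scaling by the gene table instead of the exon table lowered the log2 difference of all exons by a median of -0.0621, so exons are set beside genes on the gene-table scale, which called 8 higher and 3 lower, where 2.58% of all exons were called. The exons of largest difference with a mean of at least 0.5 CPM were Itga10 exon 16 (0.74 on the exon-table scale), Gm20633 exon 1 (-0.70), Rbm8a exon 6 (0.66) and Nudt17 exon 7 (0.65). Nudt17 exon 7 was not called and had -0.03 with the 4 marker scores. 6330549D23Rik exon 3, of lower level, had 1.21, and was chosen after its values were seen. It had at most 0.748 CPM in HSNpt and a median of 0.238, against a median of 0.714 in HDID1, where 33 of 35 mice exceeded the HSNpt median. The neighbouring exon 2 of the same gene, which overlaps Lix1l, had medians of 1.34 and 1.32 CPM.

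Rbm8a exon 6, which holds the stop codon shown above and the 3′ end, ranged from 17.9 to 52.2 CPM (median 23.4) in HDID1 and from 12.6 to 39.5 (median 15.4) in HSNpt. All 35 HDID1 mice were above the HSNpt median. Its log2 difference on the gene-table scale was 0.56 (SE 0.09), against 0.01 (SE 0.10) for exon 1, where medians were 1.75 and 1.83 CPM, and exons 2 to 5 lay between 0.11 and 0.21. The share of Rbm8a counts in exon 6 had a median of 47.7% (37.7% to 56.3%) in HDID1 and 39.7% (35.8% to 46.9%) in HSNpt. On the exon-table scale exon 6 had 0.50 without the libraries that stand apart, 0.43 with the 5′ balance and 0.25 with the 4 marker scores, the last not called.

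**Figure D3:**
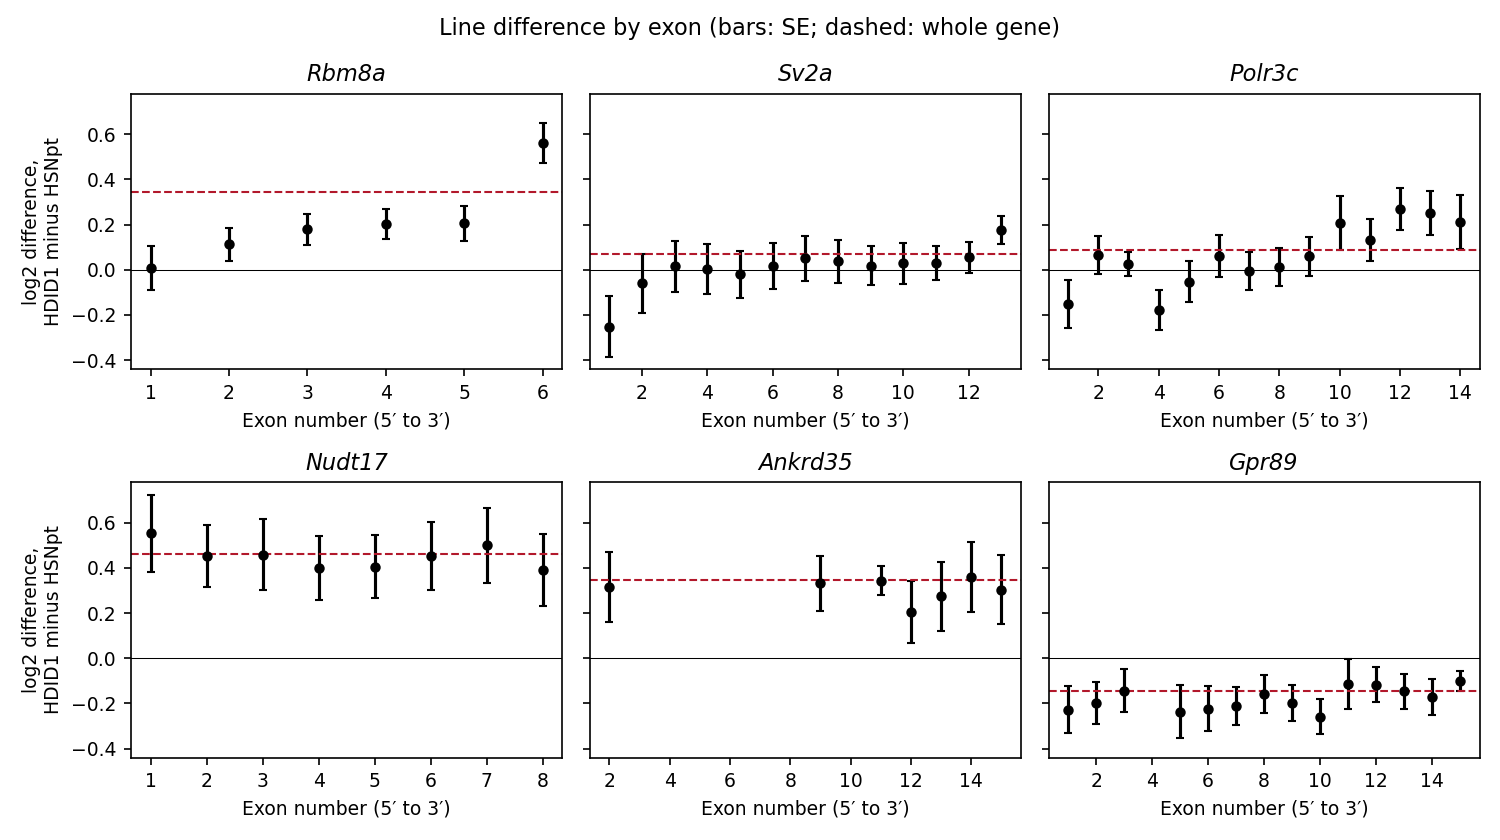
The log2 difference between the lines (HDID1 minus HSNpt, gene-table scale, with SE bars) is plotted by exon number from 5′ to 3′ for 6 genes, with the whole gene as a dashed line. Exon 6 of Rbm8a lies at 0.56 and exon 1 at 0.01, while every tested exon of Nudt17 and Ankrd35 lies above 0 and every one of Gpr89 below.

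In the other named genes with at least 3 tested exons the profile was flatter. Nudt17 ran from 0.39 (exon 8) to 0.55 (exon 1), Ankrd35 from 0.20 (exon 12) to 0.36 (exon 14) and Mtmr11 from 0.23 (exon 3) to 0.46 (exon 13), with SEs of 0.12 to 0.17. Of 18 genes with at least 3 tested exons, 9 had all of them on the same side, 6 higher and 3 lower. Sv2a and Polr3c, chosen after their values were seen, crossed 0: Sv2a from -0.25 at exon 1 to 0.17 at exon 13, and Polr3c from -0.18 at exon 4 to 0.27 at exon 12.

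A 5′ to 3′ slope was common to the whole table. In genes with at least 3 exons, 19 of 22 tested last exons in the segment lay above their gene's difference (median 0.05) and 11 of 12 tested first exons below it (median -0.16). Elsewhere the same held for 91.2% of 12418 last exons (median 0.07) and 92.4% of 7447 first exons (median -0.17). The 5′ balance of the libraries, the centred median log2 ratio of counts in the 5′ exons to those in the 3′ exons over 7836 genes, was -0.25 ± 0.58 (SD, n = 35) in HDID1 and -0.07 ± 0.37 (SD, n = 34) in HSNpt. It was lowest in HDID1 female replicates 10 (-2.52) and 6 (-2.19) and in HSNpt male replicate 8 (-2.05). The HDID1 maxima of Rbm8a and Nudt17 came from female replicate 10. The HDID1 maximum of Ankrd35 and minimum of Gm20633 came from female replicate 6, and the HSNpt maximum of Ankrd35 from male replicate 8. The part of the 5′ balance in these values and in single exons was not tested beyond the fits given.

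No sex difference was called in the segment. Over both lines 0 of 31 genes passed edgeR's test at the same threshold, where 0.0949% of all genes did, and 2 had an unadjusted p under 0.05, or 6.45% against 9.07% of all genes. The smallest was for Sv2a, with 589 CPM in HDID1 females and 637 in males, and 567.5 in HSNpt females and 599.7 in males. Its log2 difference, male minus female, was 0.10 (SE 0.05, adjusted p = 0.551 by edgeR), with a 95% interval from 0.01 to 0.19. Of 167 exons 0 passed, where 0.1% of all exons did, and 5 (2.99%, against 4.45% of all exons) had an unadjusted p under 0.05, the smallest at Gpr89 exon 1 (-0.30, adjusted p = 0.571 by edgeR). DESeq2 called 0 of the 31 genes.

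The line difference was not shown to depend on sex. For the line by sex interaction 0 of 31 genes passed (0% of all genes), 1 (3.23%, against 5.03% of all genes) had an unadjusted p under 0.05, and DESeq2 called 0 of the 31. That gene was Polr3c, the RNA polymerase III subunit gene, at 25.8 CPM in HDID1 females, 24.4 in HDID1 males, 22.7 in HSNpt females and 24.5 in HSNpt males (interaction -0.19, SE 0.09, adjusted p = 0.978 by edgeR). For the 8 named genes the line difference had the same sign in females and in males. These genes were chosen on the difference over both sexes, so nothing is read from that. Of all 31 tested genes 23 had the same sign in both sexes.

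Within each line the genes were set against blood ethanol after the last session, whose unit is not stated. Readings had a median of 1.498 in HDID1 (0 to 2.81) and of 0.256 in HSNpt (0 to 1.70), with 16 of 34 HSNpt mice at 0. In HSNpt 0 of 28 tested genes passed (0% of all genes), 0 had an unadjusted p under 0.05 against 2.95% of all genes, and DESeq2 called 0. Itga10 had the smallest p there, with a log2 slope of 0.20 per unit (SE 0.11, 95% interval -0.02 to 0.41, adjusted p = 0.956 by edgeR). In HDID1 0 of 30 passed (0% of all genes), 2 (6.67%, against 8.64% of all genes) had an unadjusted p under 0.05, and DESeq2 called 0. Ankrd34a, for an ankyrin repeat protein, had the smallest p, with a slope of 0.11 (SE 0.04, adjusted p = 0.544 by edgeR).

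Co-variation among mice of one line does not use the line difference. Among the 34 HSNpt mice, Pearson's r of log2 CPM, after removal of the mean of each sex, was computed for the 30 adjoining pairs of tested genes and tested with 100000 permutations, adjusted over the 30. In all, 9 pairs passed an adjusted p under 0.05, 7 with positive and 2 with negative r, and 7 of the 9 also passed by Spearman's rho. Of 16211 adjoining pairs of the autosomes elsewhere 25.9% reached the lowest positive r that passed here, 0.45, and 8.45% the negative r of -0.46. The median r was 0.12, with 20 of 30 above 0. Across the pairs elsewhere it was 0.14, and the 2 medians were not tested against each other. The median was 0.45 for the 9 segment pairs whose exons overlap and 0.02 for the 21 others, and elsewhere 0.45 for pairs of overlapping gene spans and 0.10 for those apart. Without exons that overlap another gene, 27 pairs could be formed and 7 passed. Among the 35 HDID1 mice 11 of the 30 adjoining pairs passed, 7 of the 9 HSNpt pairs among them, and all 9 had the same sign there. HSNpt mice alone by sex gave 4 passing pairs in 17 females and 0 in 17 males.

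In HSNpt Rbm8a ranged from 33.5 to 85.0 CPM with a median of 39.5, and 1 mouse, HSNpt male replicate 8, was the highest. This mouse had a 5′ balance of -2.05, where the next lowest HSNpt mouse was at -0.35. Rbm8a itself fell as the 5′ balance rose (r = -0.81, permutation p = 2e-05, adjusted p = 2.07e-04 over 31 genes; rho = -0.49, permutation p = 0.00342; -0.49 without the 2 farthest mice).

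**Figure D4:**
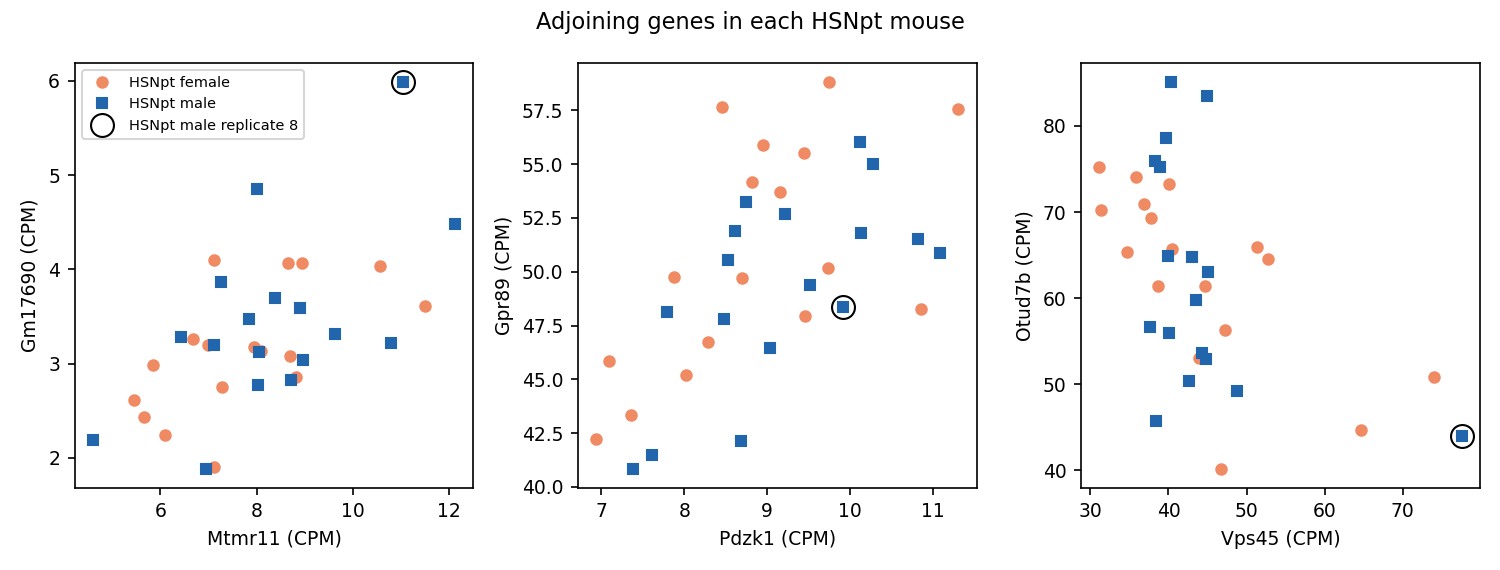
Each point is an HSNpt mouse, with the CPM of the left gene of an adjoining pair on the x axis and of the right gene on the y axis; neither axis starts at 0. Mtmr11 and Gm17690 (r = 0.59) and Pdzk1 and Gpr89 (r = 0.66) rise together, Vps45 and Otud7b (r = -0.57) go opposite ways, and the circled mouse is HSNpt male replicate 8. Mtmr11 and Gm17690, and Pdzk1 and Gpr89, overlap on opposite strands, so their reads cannot be told apart.

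Pdzk1, a PDZ scaffold gene, and Gpr89 overlap on opposite strands and had an r of 0.66 (permutation p = 4e-05, adjusted p = 6e-04; rho 0.62; 0.58 without the 2 farthest mice). Pdzk1 ranged from 6.94 to 11.3 CPM and Gpr89 from 40.8 to 58.8. Of the counts of Pdzk1 98.8% lie in exons that overlap another gene, and with those exons left out r was -0.04. The Pdzk1 exons left held at most 36 counts each, summed over all libraries, against 1771, 3317 and 5947 in exons 11, 12 and 13, which overlap Gpr89. With so few counts the value of -0.04 cannot show whether the relation is lost. The r of 0.66 cannot be told apart from the same reads counted for both genes. With the 4 marker scores removed r was 0.29 and no longer passed (adjusted p = 0.24 by permutation). It was 0.68 without the libraries that stand apart. Mtmr11 and its antisense neighbour Gm17690 had an r of 0.59 (permutation p = 2.8e-04, adjusted p = 0.00232; rho 0.52; 0.54 without the 2 farthest mice). It no longer passed with the 4 marker scores removed (0.44, adjusted p = 0.0635 by permutation). Without the libraries that stand apart r was 0.50. Of Gm17690 all counts lie in exons that overlap another gene, so that pair had no value without them. The remaining positive pairs that passed were Gm16253 and Polr3gl (0.57), Polr3c and Rnf115 (0.49), Nudt17 and Polr3c (0.46, not past by rho) and Pias3 and Nudt17 (0.45, but -0.35 with the 4 marker scores removed). Polr3c and Rnf115, whose shared 18 bases are shown above, had 0.52 with overlapping exons left out (adjusted p = 0.0131 by permutation). Pias3 and Nudt17 had 0.16. Gm16253 and Polr3gl had -0.05, but Gm16253 kept only exon 1, with 2 counts summed over all libraries. Nothing can be read from that value. The other Gm16253 exon, exon 2, held 2041 counts and overlaps Polr3gl. The r of 0.57 cannot be told apart from shared reads. With the 4 marker scores removed 3 more pairs no longer passed by permutation: Polr3c and Rnf115 had 0.35 (adjusted p = 0.169), Gm16253 and Polr3gl 0.40 (adjusted p = 0.115) and Nudt17 and Polr3c 0.32 (adjusted p = 0.175).

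Vps45, for a vesicle fusion protein, and Otud7b, for a deubiquitinase, had the lowest r, -0.57 (permutation p = 4e-04, adjusted p = 0.0024; rho -0.55; -0.49 without the 2 farthest mice). Vps45 ranged from 31.1 to 77.6 CPM and Otud7b from 40.2 to 85.1. In HDID1 mice their r was -0.50, and with the 4 marker scores removed it was -0.70 in HSNpt. Without the libraries that stand apart it was -0.47 and no longer passed (adjusted p = 0.0613 by permutation). Sv2a and the mitochondrial gene Bola1 had an r of -0.46 (permutation p = 0.00557, adjusted p = 0.0239), but a rho of -0.25 (permutation p = 0.151) and an r of -0.28 without the 2 farthest mice, so in these values the relation rests on those mice. It was -0.25 without the libraries that stand apart. With the 4 marker scores removed r was -0.84, rho -0.65 (adjusted p = 0.00135 by permutation) and r without the 2 farthest mice -0.62. In HDID1 r was -0.46, rho -0.51 (adjusted p = 0.00637 by permutation) and r without the 2 farthest mice again -0.46. The third lowest was Gm20628 and Fcgr1, the high-affinity IgG receptor gene (r = -0.28, permutation p = 0.111, adjusted p = 0.303).

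**Figure D5:**
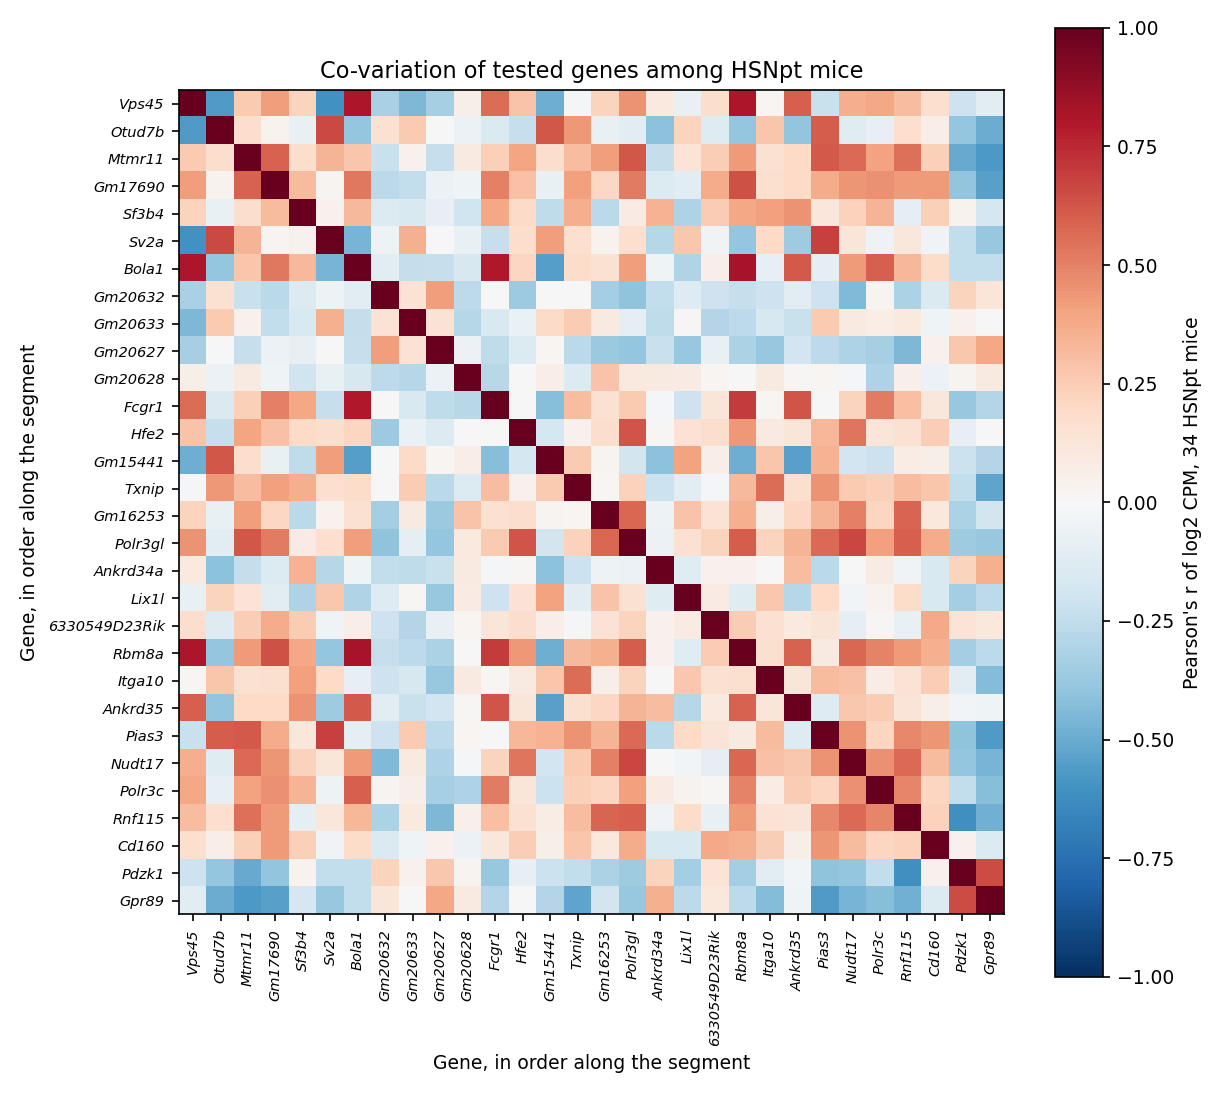
Pearson's r of log2 CPM among 34 HSNpt mice is shown for the pairs among 30 of the 31 tested genes, in their order along the segment, from blue (-1) to red (1). Pdzk1 and Gpr89, at the end of the diagonal, have 0.66, and high values are not limited to neighbours.

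Over all 465 pairs of the 31 genes r ran from -0.61 to 0.82, with a median of 0.07. Among HSNpt mice 11 of the 31 genes were related to the spiny neuron score and 12 to the 5′ balance at the same threshold, adjusted over 31 genes (permutation test). Of all 16867 genes 23.3% reached the smallest absolute r of those 11, 0.41, and 53.7% that of those 12, also 0.41. By rho 10 and 3 of the 31 passed. With the 5′ balance Vps45 had an r of -0.62 but a rho of -0.21 (permutation p = 0.225), and Ankrd35 had -0.68 but a rho of -0.26 (permutation p = 0.135), and HSNpt male replicate 8 was far below the other mice on that scale. Pias3 had the lowest r with the spiny neuron score, -0.83 (permutation p = 1e-05, the smallest the permutations can give, adjusted p = 3.1e-04; rho -0.83; -0.80 without the 2 farthest mice), and was named after its values were seen. Polr3gl had -0.65 and Rnf115 -0.67, while Gpr89 had 0.47 and Pdzk1 0.43. Pias3 lay between 10.2 and 25.2 CPM in HSNpt and its line difference of 0.28 was 0.04 with the 4 marker scores in the fit, and that of Polr3gl went from 0.27 to -0.03. Ankrd35, 6330549D23Rik and Rbm8a had r values of 0.20, -0.07 and -0.15 with the spiny neuron score. With the 4 marker scores their line differences went from 0.35 to 0.32, from 0.35 to 0.29 and from 0.34 to 0.17. All genes set beside this score here were chosen after their values were seen. The part of the score in these changes was not tested.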

How the data were processed

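The authors deposited raw counts in 2 tables, of genes and of exons, without normalization and with a column for each mouse. The build mm10 and the tools STAR, bedtools, edgeR, CASAVA and FastQC are named, per the submitters' processing notes, and per the labels' protocols libraries were poly-A selected and stranded. The sources used here give no versions and do not say whether counting used strand. Exon sums equalled the gene count for all 57 genes, and 259 of 288 exons have the same ends in GENCODE M21. No column of the tables was without a sample.

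The members, gene lists and tests were chosen with earlier results of these data known. Genes are named by these rules: the 8 of largest line difference with a mean of at least 1 CPM, their extreme exons, the 4 exons of largest difference with at least 0.5 CPM, passing genes or else the gene of smallest p in the other comparisons, and the 3 pairs of highest and of lowest r. Others are said to be chosen after their values were seen, or complete a count.

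Counts were filtered with filterByExpr on the 4 groups of line and sex, scaled by TMM and fitted to 4 group means over 69 libraries with edgeR 4.0.16 (R 4.3.3), quasi-likelihood F test, Benjamini-Hochberg adjustment and a threshold of 0.05. SE is the log2 difference over the root of F, and CPM uses TMM library sizes of the gene table. Blood ethanol slopes were fitted within each line with sex as a term. Correlations used log2 CPM with a prior count of 2 and two-sided permutation tests (numpy 2.4.6). Marker scores are mean centred log2 CPM, and a library stood apart if over 3 scaled median absolute deviations from the median for spiny neurons, hypothalamus, choroid plexus, cortex, midbrain dopamine or 5′ balance. Alternatives were other scaling and filters, DESeq2 1.42.0, covariates, subsets of mice, and prior counts of 0.5 and 5. The fits were tested on simulated data. Lane assignments were not used. Some items that the rules name are not reported here, though they enter the counts and fits. Replicate numbers only name mice, and p-values measure the spread between mice.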

Additional observations from a re-analysis of the deposited data

How the results depend on the processing

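Counts of the line difference moved with marker scores and with fewer libraries, and those of exons also with the filter and the 5′ balance; counts are genes or exons at an adjusted p under 0.05. Genes higher in HDID1 went from 11 to 5 without the libraries that stand apart, 1 with 4 marker scores, 1 in females and 5 in males. Lower genes went from 4 to 2 with 4 marker scores and 0 in females. Exons higher went from 10 to 5 at a mean of 1 CPM, 6 without the libraries that stand apart, 0 with 4 marker scores, 0 in females and 0 in males. Lower exons went from 2 to 4 with a filter of 10 counts in all, 1 with 4 marker scores, 0 in females, 1 in males and 4 with the 5′ balance, an alternative added after seeing the data. Fewer mice enter the fits by sex, and the cause of the other changes was not tested. The shares of all genes and exons called in these alternatives were not computed, so no change is read as particular to the segment. Adjoining pairs that passed in HSNpt went from 9 to 5 without the libraries that stand apart, 3 with 4 marker scores, 4 in females, 0 in males and 3 with the scores and the 5′ balance, the last also added later. The r of Pdzk1 and Gpr89 turned to -0.042 without overlapping exons, likewise added later. That value rests on Pdzk1 exons of at most 36 counts each, summed over all libraries. The 8 named line differences kept their sign in every alternative run, and the sex, interaction and blood ethanol counts stayed at 0. These 8 were chosen for their size in the same libraries, so nothing is read from their signs. Of all 31 tested genes 22 kept their sign with 4 marker scores and 27 without the libraries that stand apart. No paired analysis was possible because the labels give no replicate numbers that pair mice across groups. Genes under about 1 CPM, such as Gm20627, Cd160 and Hfe2, rest on few counts per library.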
